A study of Mus musculus with 8 samples.

Results

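A set of 9 transcription factor genes of the neuroendocrine lineage, Insm1, Neurod1, Nkx2-1, Foxa1, Foxa2, Prox1, Pou2f3, Nfib and Rest, were followed in mouse preSC cells with and without a guide RNA against Max. The members were taken by symbol from the listed names, and all 9 were found among the 23284 genes of the count files. RNA was sequenced from 4 Max KO and 4 control libraries. Every library came from neuroendocrine precursor cells of strain 129/SvJ; C57BL/6 with the Chga-GFP reporter and the alleles Rblox/lox, p53lox/lox and p130lox. Both groups shared these, and the guide (control or Max) is the only difference between the groups that the labels give. Whether the lox alleles had been recombined is not stated in the labels. The cells were polyclonal populations, selected with puromycin and expanded without other treatment, and a group is therefore a mixture of edited cells rather than a clone. Whether replicate libraries were grown as independent cultures is not given, and p-values cover the spread among the sequenced libraries only, which may be technical. In bulk RNA a lower value can mean fewer cells of a kind or less RNA per cell, and these cannot be told apart.

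Neuroendocrine cells are rare hormone-secreting cells of the airway lining, and they are a cell of origin of small cell lung cancer. A small set of transcription factors sets their identity. NEUROD1 is a basic helix-loop-helix activator that binds E-boxes, INSM1 is a zinc-finger factor of endocrine differentiation, and PROX1 and NFIB act beside them. NKX2-1, FOXA1 and FOXA2 mark lung and foregut epithelium, POU2F3 drives the tuft cell lineage, and REST silences neuronal genes in cells that are not neuronal. MAX is the partner through which MYC proteins bind the E-box CACGTG, and the comparison asked how expression differed once Max had been targeted.

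The promoters show what letters lie next to these genes' start sites. RefSeq windows (GRCm38.p6) were at hand for 5 members, with 8 start sites among them. None of the 8 windows, each from 250 bases before to 50 bases after a start, held CACGTG on either strand, and 7.15% of all 32851 windows held it. The general E-box CANNTG, which includes CACGTG, occurred in 5 of the 8, against 72.3% of all windows. The upstream stretches of Neurod1, Foxa1 and Prox1 are printed because Neurod1 differed most in counts, Foxa1 holds a forkhead site, and Prox1 came nearest to the threshold among the tested members. All lie on the minus strand, at chr2:79456637-79456886, chr12:57546112-57546361 and chr1:190170828-190171077 in that order, and capitals mark CANNTG and the forkhead motif TGTTTAC on either strand.
Neurod1: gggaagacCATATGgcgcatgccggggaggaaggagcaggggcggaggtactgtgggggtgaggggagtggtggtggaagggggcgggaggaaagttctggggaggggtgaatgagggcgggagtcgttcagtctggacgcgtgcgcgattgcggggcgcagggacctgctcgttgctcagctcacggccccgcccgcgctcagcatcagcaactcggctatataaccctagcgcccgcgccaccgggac
Foxa1: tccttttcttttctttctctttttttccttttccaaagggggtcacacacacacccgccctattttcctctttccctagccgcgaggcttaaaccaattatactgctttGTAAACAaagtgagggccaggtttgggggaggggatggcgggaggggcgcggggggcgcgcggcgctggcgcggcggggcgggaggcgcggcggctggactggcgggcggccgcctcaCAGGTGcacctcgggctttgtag
Prox1: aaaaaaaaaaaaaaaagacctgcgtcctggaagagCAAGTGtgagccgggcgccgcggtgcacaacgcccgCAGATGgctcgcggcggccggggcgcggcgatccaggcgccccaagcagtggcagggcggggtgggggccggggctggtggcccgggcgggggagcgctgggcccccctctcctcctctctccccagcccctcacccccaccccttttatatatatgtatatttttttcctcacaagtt
Neurod1 held 1 E-box in this stretch, CATATG, Foxa1 held CAGGTG, and Prox1 held CAAGTG and CAGATG. Prox1 has another start site, not printed, whose window held no CANNTG. The forkhead motif was found in 1 of the 8 member windows, that of Foxa1, where it reads GTAAACA, and in 3.65% of all windows. Matches are letters only and show no binding.

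Depth was 13711278 to 19804949 reads counted in genes per library, so that 1 read corresponded to 0.0505 to 0.0729 CPM (read counts scaled to a common library size). For a gene with no read, the upper limit, worth 3 reads, was 0.151 to 0.219 CPM depending on the library, and it covers counting error only. The cells carried the neuroendocrine label in their RNA: all 33 genes of a neuroendocrine marker list passed the count filter, Chga was at 457 ± 8.75 CPM in the control and 442 ± 34.04 in the knockout, and Syp was at 178 ± 12.2 and 175 ± 8.06 (SD, n = 4 each). Other identity genes were less even. Uchl1 was called higher (0.41, adjusted p = 0.0496, edgeR), a call kept in 1 of the 8 fits without 1 library. It split between the control pairs, kept with only controls 1 and 2 (0.62, adjusted p = 9.22e-06) and lost with only controls 3 and 4 (0.22, adjusted p = 0.290). It was also lost with upper-quartile scaling, the 1 CPM filter and the replicate block. Epcam was not called (0.34, adjusted p = 0.0798). It passed with DESeq2, without control 1 and with only controls 3 and 4 (0.58, adjusted p = 0.00223), not with only controls 1 and 2 (0.13, adjusted p = 0.193). The other 3 of the 4 epithelial identity genes were called higher in edgeR: Cdh1 (0.53, adjusted p = 0.00444), Krt8 (0.52, adjusted p = 0.00378) and Krt18 (0.72). Of all tested genes, 10.9% were called higher. The neuropeptide gene Calca was at 1980 and 1783 CPM in controls 1 and 2, at 399 and 467 CPM in controls 3 and 4 and at 524 to 589 CPM in the knockout. It was not called with all controls (-1.08, adjusted p = 0.164), was called lower with only controls 1 and 2 (-1.78, adjusted p = 2.58e-11) and higher with only controls 3 and 4 (0.33, adjusted p = 0.0373). Of 11 fibroblast, 10 blood and 7 endothelial markers, 3, 1 and 2 passed the filter. Lum, Emcn, Hba-a1 and Hbb-b1 had no read in any library and Ptprc had at most 2. The summed fibroblast level was 26.9 to 46.4 CPM in the control and 50.5 to 66.5 in the knockout, mostly Dcn, which rose (0.77), while Pdgfra was called lower (-2.37, with 1 to 5 reads in the knockout and the filter passed through the controls) and Fap was not called (-0.44). The endothelial sum was 258 to 422 and 595 to 702 CPM, mostly Vwf. The blood sum was 2.97 to 6.00 and 2.46 to 4.27 CPM. The part of these markers in other results was not tested. Max itself was at 68.2 ± 5.75 CPM in the control and 52.9 ± 12.8 in the knockout, and this difference did not pass the threshold (adjusted p = 0.0955, edgeR), which is a weak check because Cas9 edits need not lower the transcript. Knockout libraries 1 to 4 were at 42.3, 42.3, 59.1 and 68.0 CPM of Max, the last near the control mean. The fall of Max passed in 1 of the 8 fits without 1 library, the fit without knockout 4. Rb1 (0.23, adjusted p = 0.184, edgeR) and Trp53 (0.05, adjusted p = 0.718) were not called. Rb1 passed without control 4 and with only controls 1 and 2 (0.29, adjusted p = 0.00770), not with only controls 3 and 4 (0.16, adjusted p = 0.463). Rbl2, which encodes p130, was lower (-0.38, adjusted p = 0.0323), a call kept in 2 of the 8 fits without 1 library. It was kept with only controls 1 and 2 (-0.44, adjusted p = 0.00133) and lost with only controls 3 and 4 (-0.33, adjusted p = 0.114). Controls 3 and 4 differed from controls 1 and 2, with more reads outside exons (23.3% and 23.4% against 18.5% and 18.6%), and their part in the results was not tested. The fit with only controls 1 and 2 called 44.6% of all tested genes, and that with only controls 3 and 4 called 20.7%.

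Of the 9 lineage factors, 6 had enough reads to be tested and none of the 6 was called. Across all tested genes, 23.1% passed an adjusted p of 0.05 in edgeR's quasi-likelihood test, 10.9% higher and 12.2% lower in the knockout. In 26.4% of tested genes the 4 knockout values lay wholly above or below the 4 control values, and this was so for none of the 6. Before adjustment, Prox1 alone passed 0.05 in edgeR's fit over all genes, and unadjusted values of the other 5 ran from 0.159 to 0.982. DESeq2 and limma-voom also called none of the 6. A missing call does not show an equal level, and the interval of each change is given with the gene. The remaining 3 members, Neurod1, Rest and Pou2f3, were read as raw counts.

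The order of levels was read per kilobase of exon, with lengths from GENCODE M21 gene models that may differ from those used in counting. Insm1 (226 ± 21.2 CPM per kb), Nkx2-1 (197 ± 16.4), Foxa1 (143 ± 18.5) and Foxa2 (101 ± 10.01) led in the control, followed by Nfib (23.3 ± 6.35) and Prox1 (16.3 ± 1.99; SD, n = 4 each). The ranges of Insm1 (195 to 239 CPM per kb) and Nkx2-1 (177 to 214) overlapped, and Insm1 was the higher in 3 of 4 controls. Those of Nfib (18.1 to 31.5) and Prox1 (13.7 to 18.4) overlapped too, although Nfib was the higher in each of the 4 controls. Foxa1 and Foxa2 did not overlap in the control (121 to 165 against 92.2 to 114). Neurod1 (0.476 ± 0.346), Rest (0.0232 ± 0.0235) and Pou2f3 (0.0107 ± 0.0124) stood far below. The knockout had the same order for the first 4, and Nfib (20.1 ± 2.12) and Prox1 (19.8 ± 2.71) were each the higher in 2 libraries.

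Insm1, the zinc-finger factor of endocrine differentiation, was at 742, 739, 603 and 717 CPM in controls 1 to 4 and at 665, 697, 626 and 818 CPM in knockout libraries 1 to 4. Control 3 was the lowest library and knockout 4 the highest, and the groups overlapped over most of their range. The means were 700.2 ± 65.7 and 701 ± 83.0 CPM (SD, n = 4 each). The log2 fold change was 0.00 (SE 0.10, 95% interval -0.22 to 0.23, adjusted p = 0.990 in edgeR), so changes beyond 1.17-fold in either direction lay outside the interval. Insm1 was not called in any of 18 alternative analyses, in which its change ran from -0.09 to 0.08.

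The epithelial factors did not pass the threshold either. Nkx2-1, the lung lineage homeobox gene, was at 502, 543, 607 and 585 CPM in the controls and 536, 529, 486 and 593 CPM in the knockout. Control 3, the lowest library for Insm1, was the highest for Nkx2-1, and the groups overlapped. The log2 fold change was -0.06 (SE 0.09, 95% interval -0.26 to 0.13, adjusted p = 0.667, edgeR).

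Foxa1, a pioneer factor that opens chromatin for other factors, was at 463, 444, 385 and 528 CPM in the controls. In the knockout it was at 487, 511, 486 and 529 CPM. Controls 1, 2 and 3 lay below every knockout library, and control 4 lay level with the highest of them. The log2 fold change was 0.14 (SE 0.10, interval -0.07 to 0.35, adjusted p = 0.315, edgeR), and it came to 0.22 without control 4 (adjusted p = 0.0655). Reads of Foxa1 carry a limit: RefSeq places Ttc6 over the same locus, and strand was not stated.

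Foxa2, its relative in foregut endoderm, was at 201, 205, 226 and 248 CPM in the controls and 245, 242, 214 and 256 CPM in the knockout. Controls 1 and 2 lay below all 4 knockout libraries, and controls 3 and 4 lay within their range. The log2 fold change was 0.12 (SE 0.09, interval -0.07 to 0.31, adjusted p = 0.366, edgeR). It depended on the controls used, at 0.24 with only controls 1 and 2 (adjusted p = 0.0165) and 0.00 with only controls 3 and 4 (adjusted p = 0.982). Those fits called 44.6% and 20.7% of all tested genes, respectively.

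**Figure D1:**
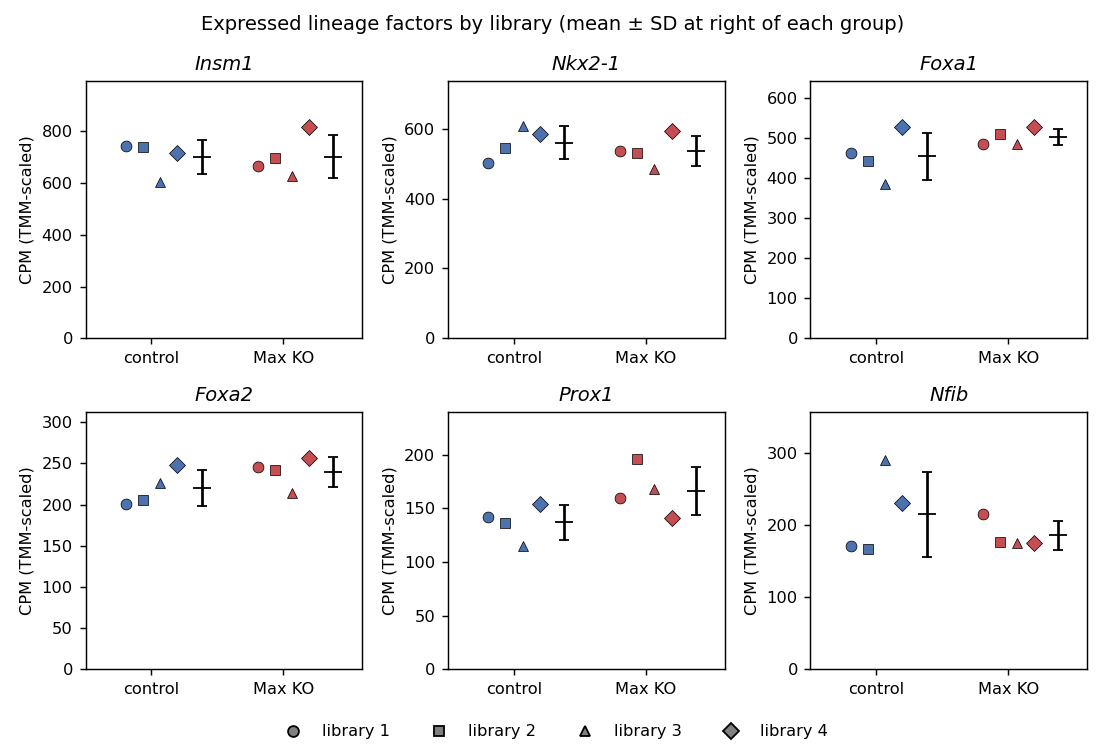
Level of the 6 tested lineage factors in CPM (vertical axes from 0) in each control (blue) and Max KO (red) library, with the mean ± SD of 4 libraries beside each group. The groups overlap in every panel, control 3 (blue triangle) is the lowest control for Insm1, Foxa1 and Prox1, and it is highest for Nfib at 291 CPM.

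Prox1 and Nfib showed the largest differences of the 6. Prox1, a homeobox gene of endocrine and neuronal differentiation, was at 142, 137, 115 and 154 CPM in the controls and 159.9, 196, 168 and 141 CPM in the knockout. Knockout libraries 1, 2 and 3 lay above all controls, and knockout 4 lay below controls 1 and 4. The means were 137 ± 16.7 and 166 ± 22.7 CPM (SD, n = 4 each), a log2 fold change of 0.28 (SE 0.11, interval 0.04 to 0.52). This did not pass after adjustment (adjusted p = 0.0934, edgeR). It passed in 2 of 18 alternatives, without control 4 (0.34, adjusted p = 0.0483) and with only controls 1 and 2 (0.25, adjusted p = 0.0396), and the change was positive in all 18. Of all tested genes, 27.8% were called without control 4 and 44.6% with only controls 1 and 2. The antisense RNA Prox1os overlaps the gene, and its reads cannot be told apart without strand.

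Nfib, a nuclear factor I gene that is amplified in mouse small cell lung tumours, was at 170.2, 167, 291 and 231 CPM in controls 1 to 4. The knockout libraries were at 215, 177, 175 and 176 CPM. Control 3 alone lay far above the others, the 2 highest values were both controls, and the 2 lowest were controls as well. The coefficient of variation was 27.3% in the control and 10.5% in the knockout, where the median tested gene had 12.4% and 7.62%. The log2 fold change was -0.21 (SE 0.16, interval -0.57 to 0.15, adjusted p = 0.400, edgeR). Its sign turned with the controls, at 0.14 with only controls 1 and 2 (adjusted p = 0.195) and -0.50 with only controls 3 and 4 (adjusted p = 0.00834), and without control 3 it was -0.03 (adjusted p = 0.876). RefSeq places the RNA gene 2310067E19Rik over the locus of Nfib, and strand was not stated.

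**Figure D2:**
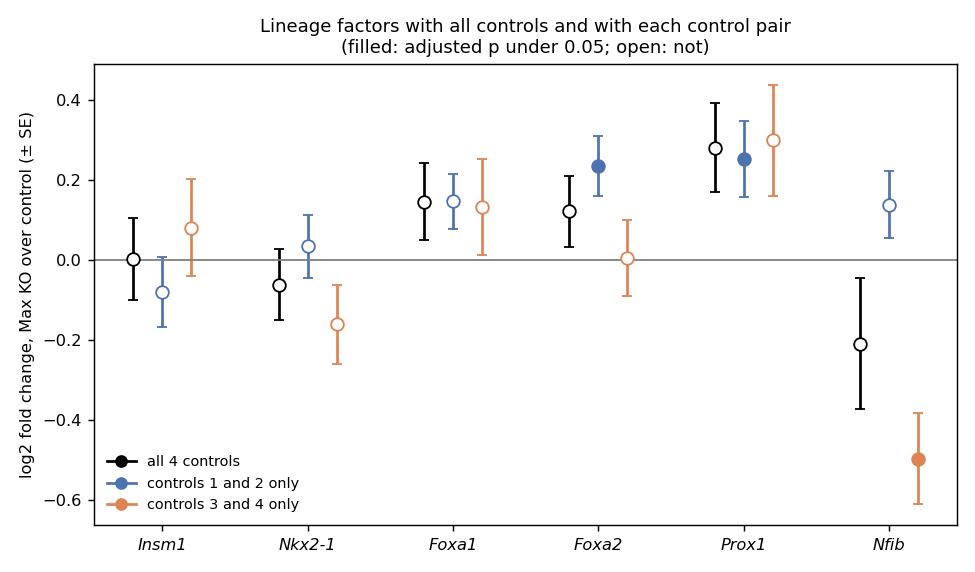
Log2 fold change of the 6 tested lineage factors, Max KO over control, with its SE, using all 4 controls (black), only controls 1 and 2 (blue) or only controls 3 and 4 (orange), where filled points passed an adjusted p of 0.05. Nfib moves from 0.14 to -0.50 between the control pairs, whereas Prox1 stays between 0.25 and 0.30.

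The 3 members with few reads differed among themselves. Neurod1, the bHLH activator that defines a class of small cell lung tumours, had 28, 21, 33 and 2 reads in controls 1 to 4 and 3, 0, 1 and 1 reads in knockout libraries 1 to 4. Controls 1, 2 and 3 stood far above every knockout library, and control 4 did not, having fewer reads than knockout 1. Levels were 1.41, 1.28, 2.41 and 0.116 CPM in the controls and at most 0.154 CPM in the knockout, that is, at or under the value of 3 reads. Summed over libraries, 84 control reads stood against 5 knockout reads, a ratio of 16.4 with a counting interval of 6.74 to 51.7 that leaves out the spread between libraries. The difference was -1.23 CPM (two-sided exact permutation p = 0.0571 over 70 assignments, where 0.0286 is the smallest it can give). Control 4 was the library that broke the separation of the groups.

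Neurod1 did not pass the count filter and so was not tested in the fit over all genes. With no count filter it was called lower (-3.92, SE 0.86, adjusted p = 0.00867, edgeR). It also entered some fits with fewer libraries, but there it passed the filter only through the controls, where it was high, so those fits are not used. The labels do not set control 4 apart. The level itself was low, at 1.30 ± 0.938 CPM in the control and 0.0710 ± 0.0633 in the knockout (SD, n = 4 each).

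A pair of genes from the lists, singled out after their values were seen because they resemble Neurod1, are given as values without a test. Neurog2, a bHLH gene known as an upstream activator of Neurod1 in the nervous system, had 11, 8, 14 and 1 reads in the controls and 1, 1, 0 and 1 in the knockout. Nefm, a neurofilament gene, had 9, 3, 16 and 0 reads in the controls and 2, 1, 0 and 0 in the knockout. Stmn2, a tubulin-binding gene of neurons, was also lowest in control 4 (14, 42, 126 and 3 reads in the controls), but it had 14, 11, 9 and 11 reads in the knockout. Neurod4, a paralog of Neurod1, went the other way, from 1.84 ± 1.17 to 3.95 ± 0.695 CPM (n = 4 each with SD), a log2 fold change of 1.14 (adjusted p = 0.0306, edgeR). That call ended in 7 of the 8 fits without 1 library (adjusted p up to 0.0936), all but the fit without control 3, where Neurod4 was at 3.59 CPM against 1.11 to 1.44 in the other controls. With only controls 3 and 4 the change was 0.75 (adjusted p = 0.153), and with only controls 1 and 2 it was 1.65 (adjusted p = 3.06e-05). Neurod2 and Neurod6 had at most 2 reads in any library.

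Rest had 8, 2, 2 and 0 reads in the controls and 1, 0, 0 and 2 in the knockout. Only control 1 exceeded 3 reads, and the groups overlapped (difference -0.123 CPM, two-sided exact permutation p = 0.286 over 70 assignments). The 12 control reads, 8 of them from control 1, stood against 3 knockout reads, a ratio of 3.90. Its counting interval of 1.05 to 21.5 leaves out the spread between libraries. Pou2f3 had 0, 1, 0 and 1 reads in the controls and 2, 0, 0 and 0 in the knockout, at or under the 3-read limit everywhere, and no fold is given (exact permutation p = 1 over 70 assignments). In both genes the permutation test over libraries detected no difference between the groups at this depth. A low count is not read as absence, since the annotation behind the counts is not known here. RefSeq also places the microRNA gene Mir5098 over the locus of Rest.

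**Figure D3:**
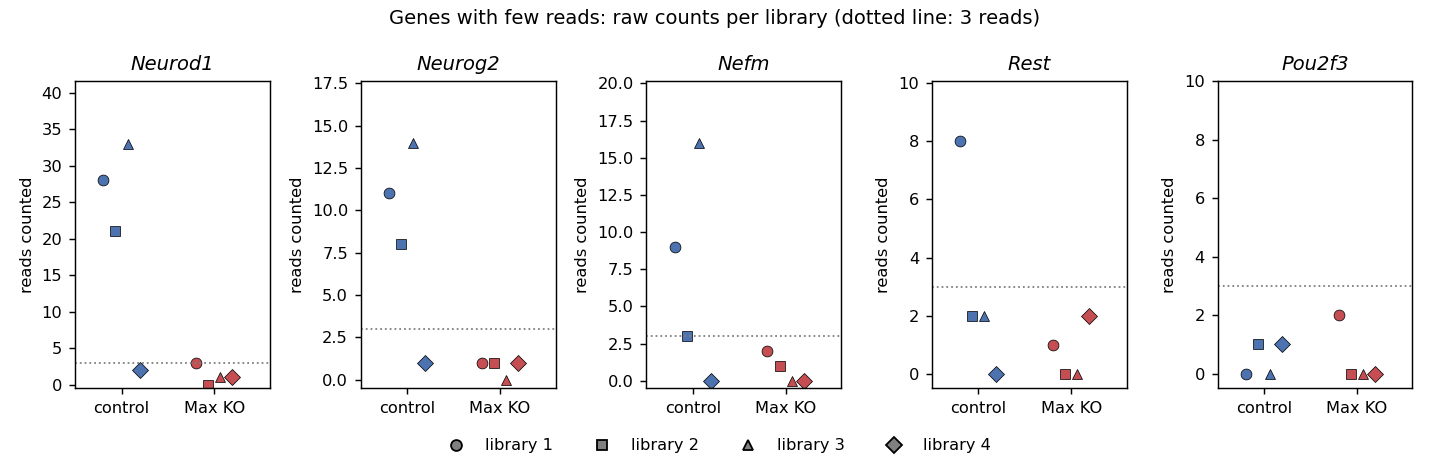
Raw reads per control (blue) and Max KO (red) library for Neurod1, Neurog2, Nefm, Rest and Pou2f3, with a dotted line at 3 reads. Neurod1, Neurog2 and Nefm are lowest among the controls in control 4 (diamond), and every knockout library has 3 reads or fewer of all 5 genes.

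The partners of Rest were expressed, and 5 of 18 were called, a share near the 23.1% of all tested genes. Rcor2, a CoREST scaffold subunit, fell from 46.0 ± 12.5 to 23.8 ± 1.94 CPM (SD, n = 4 each, -0.95, adjusted p = 0.00140, edgeR). Srrm4, a splicing regulator that inactivates Rest transcripts in neurons, rose from 50.03 ± 7.998 to 71.2 ± 3.43 CPM (0.51, adjusted p = 0.00506). Btrc, a ubiquitin ligase subunit that targets REST for degradation, rose by 0.42, Rcor3 rose by 0.49 (a call that ended without knockout 2, adjusted p = 0.0536), and Phf21a fell (-0.30). The deacetylase genes Hdac1 and Hdac2 and the demethylase gene Kdm1a were not called (-0.06, -0.07 and 0.01).

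Neuronal genes known as REST targets were almost all expressed: 50 of 53 passed the count filter. Of these, 8 rose, 14 fell and 28 were not called, with a median of -0.07 beside 0.00 for all tested genes, of which 10.9% rose and 12.2% fell. Fits that each left out 1 library gave 5 to 11 rises and 8 to 15 falls. Controls 1 and 2 alone gave 16 and 18, whereas controls 3 and 4 alone gave 6 and 14. Over all 13604 tested genes, controls 1 and 2 alone gave 2987 rises and 3081 falls. Controls 3 and 4 alone gave 1272 and 1538 among 13552. The sodium channel gene Scn2a1 rose from 19.0 ± 3.10 to 32.8 ± 2.22 CPM (0.78, adjusted p = 0.000611). The fall with the smallest p was that of Cacng2, which encodes an auxiliary subunit of glutamate receptors, from 4.52 ± 0.250 to 1.23 ± 0.423 CPM (-1.86, adjusted p = 0.000330, SD, n = 4 each). Cacng2 had 63 to 85 reads in the controls and 9 to 30 in the knockout, and it passed the count filter through the controls. Stmn4 had the most negative fold change (-5.12, adjusted p = 0.0359, edgeR), with 36.2 CPM in control 3, 1.51 to 3.01 CPM in the other controls and 0.199 to 0.447 CPM in the knockout, so that it too passed the filter through the controls. Npas4 (-1.32, adjusted p = 0.0108, edgeR) also passed the filter through the controls, with 20 to 24 reads there and 3 to 12 in the knockout. Cacng2, Stmn4 and Npas4 are counted among the 14 falls. The neuronal RNA-binding gene Elavl4 (-0.66) and the granin gene Chgb (-0.37) fell as well. Of the 33 neuroendocrine markers, some of which are also in that list, 5 rose, 9 fell and 19 were not called (median -0.11), and controls 1 and 2 alone gave 9 and 11. The neuropeptide gene Grp (-1.85) and Eno2 (-0.59) fell, and the receptor gene Ret rose from 274 ± 49.6 to 432 ± 18.1 CPM (SD, n = 4 each, 0.66, adjusted p = 0.00238). Grp had 64 to 82 reads in the controls and 9 to 27 in the knockout, and it passed the count filter through the controls.

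Calls among other lineage factors were mostly downward. Of 63 listed transcription factors of neuroendocrine and neuronal lineages, 31 were tested, 9 fell, 1 rose and 21 were not called (median -0.19), where 12.2% of all tested genes fell and 10.9% rose. With only controls 1 and 2 there were 15 falls and 5 rises, in a fit where 3081 of all 13604 tested genes fell and 2987 rose. Zeb1, a repressor of epithelial genes, fell from 54.2 ± 3.03 to 24.5 ± 4.33 CPM (SD, n = 4 each, -1.15, SE 0.12, adjusted p = 7.27e-05, edgeR). The LIM homeobox gene Isl2 (-1.93), Ebf4 of the early B-cell factor family (-1.20) and Sox4 (-0.88) fell too, and all 4 kept their call in each fit without 1 library. Among paralogs of the members, 9 of 17 were tested. Nfix, of the family of Nfib, fell from 14.6 ± 2.63 to 6.83 ± 0.416 CPM (-1.10, adjusted p = 0.000288), while Nfia (-0.16) and Nfic (0.13) were not called. Pou2f1, the widely expressed relative of Pou2f3, rose from 60.5 ± 4.15 to 82.8 ± 5.76 CPM (0.45, adjusted p = 0.00193, SD, n = 4 each). Nkx2-5, the cardiac relative of Nkx2-1, was at 5.78 CPM in control 3, at 0.956 to 1.08 CPM in the other controls and at 0.0638 to 0.136 CPM in the knockout, below the value of 3 reads. It passed the count filter through the controls alone, so its call among the paralogs is no support for a fall.

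Among genes that NKX2-1 and FOXA factors accompany in lung epithelium, the calls were rises. Some secretory and surfactant genes, picked after their values were seen, had few reads: Scgb1a1 had at most 1 in a library, Sftpd at most 2, Scgb3a2 none and Sftpc 14 to 54. Of 37 listed lung epithelial genes, 16 were tested, 7 rose, none fell and 9 were not called (median 0.37). Of all tested genes, 10.9% rose and 12.2% fell. Controls 1 and 2 alone gave 7 rises and 3 falls, in a fit where 2987 of all 13604 tested genes rose and 3081 fell. Krt8 and Krt18, which are among the 7 rises, are also in the epithelial identity list. Muc1, a surface mucin gene, rose from 26.5 ± 5.29 to 69.5 ± 0.985 CPM (1.39, SE 0.12, adjusted p = 2.63e-05, edgeR). The epithelial factor gene Elf3 rose from 27.3 ± 1.06 to 50.1 ± 2.30 CPM (0.88), and the keratin gene Krt18 from 365 ± 12.9 to 601 ± 25.3 CPM (0.72, SD, n = 4 each). Abca3, a lipid transporter of alveolar cells, rose by 0.50. Ttr, a transport protein gene bound by FOXA2 in liver, fell from 12.2 ± 8.65 to 1.58 ± 0.320 CPM (SD, n = 4 each, -2.95, adjusted p = 0.00308). Its controls ran at 19.3, 20.0, 5.42 and 3.98 CPM, and the fall was -1.57 with only controls 3 and 4. Just 4 of 27 listed foregut and endocrine genes were tested, of which Ttr and Abcc8 fell, the latter by -0.73 with a call that ended without knockout 2 or 3, with only controls 1 and 2 (-0.43, adjusted p = 0.0704) and with the replicate block (adjusted p = 0.05002).

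Tuft cell genes, which POU2F3 governs, mostly missed the count filter. Of 26 in the files, 8 were tested, 1 rose and 2 fell. For this list and the next, 10.9% of all tested genes rose and 12.2% fell. Trpm5, the taste-signalling channel of tuft cells, had at most 1 read in a library, as did Gfi1b. The rise was that of Cd24a (0.43), which other epithelial cells also express, and Alox5ap (-0.95) and Avil (-0.98) fell, the call of Avil ending without knockout 1 or 2. Of the non-neuroendocrine list of Notch and YAP genes, 10 of 22 were tested. Jag1 (-1.24), Notch2 (-1.21), Hey1 (-0.26) and Anxa2 (-2.28) fell and Anxa1 rose (1.10), while Hes1 (0.02) and Yap1 (0.15) were not called.

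**Figure D4:**
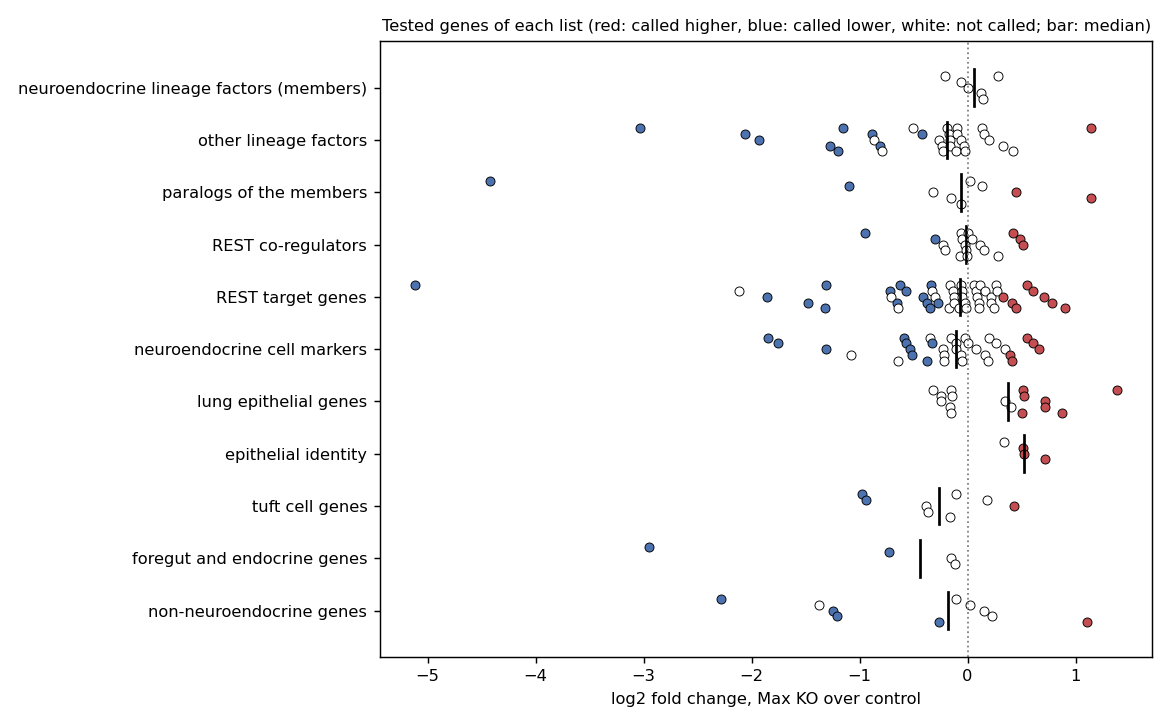
Log2 fold change, Max KO over control (horizontal axis), of every tested gene in each list, red where called higher, blue where called lower and white where not called, with a bar at the list's median. The top row holds the 6 tested lineage factors, all white and between -0.21 and 0.28, and lung epithelial genes have 7 red points and no blue one.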

How the data were processed

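The authors deposited raw counts per gene symbol for 8 libraries. Per the submitters' processing notes these came from bcl2fastq 1.8.4, TopHat2 2.0.12 on mm9 and HTSeq 0.6.1. Neither annotation nor strand setting is given in the sources used here. Summary lines (27.0% to 33.1% of the deposited totals) were left out. Per the labels' protocols, an NEB Ultra kit was used on TRIZOL-extracted total RNA.

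Genes passing filterByExpr (13358) were scaled by TMM and compared in R 4.3.3 with edgeR 4.0.16 (quasi-likelihood F test, robust, group only, Benjamini-Hochberg over all tested genes, threshold 0.05). Each SE is the fold change over the root of F, and 95% intervals use the fit's degrees of freedom. Members under the filter had plain CPM compared by exact two-sided permutation. Members, lists and alternatives were chosen with earlier results of these data known. Named genes were the 9 members, up to 4 genes with the smallest p per list, and identity and label checks, of which 1 identity gene is not reported here. The rule for genes of like pattern covered called members only, so none is named. Emcn, Lum, Hba-a1, Hbb-b1, Ptprc, Phf21a, Hdac1, Hdac2, Kdm1a, Nfia, Nfic, Hey1, Hes1, Yap1, Neurog2, Nefm, Stmn2, Stmn4, Npas4, Fap, Neurod2, Neurod6, Scgb1a1, Sftpc, Sftpd, Scgb3a2, Trpm5 and Gfi1b were added after their values were seen. The settings varied were scaling (RLE, upper quartile), no filter, a 1 CPM filter in 4 libraries, DESeq2 1.42.0, limma-voom (limma 3.58.1), no robust estimation, a replicate term, each library left out, and each control pair alone. The fit was tested on simulated counts.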

Additional observations from a re-analysis of the deposited data

Results flagged for a closer look

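In 122 groups of 4 libraries (members and named genes), 9 had a library set apart from the other 3, and chance alone sets apart about 1 group in 20. Among the lineage factors, Nfib was at 215 CPM in knockout 1 against 175 to 177 in the other knockout libraries, and Pou2f3 had 2 reads in knockout 1 and none in the others. Control 3 was high for Nkx2-5 (5.78 CPM against 0.956 to 1.08) and Neurod4 (3.59 CPM against 1.11 to 1.44). Control 4 was high for Muc1 (34.4 CPM against 22.8 to 24.6) and Krt18 (384 CPM against 357 to 359.8). In the knockout, Muc1 was at 71.0 CPM in library 1 against 68.8 to 69.1, Cdh1 was at 1026 CPM in library 2 against 938 to 946, and Pdgfra was at 0.0522 CPM in library 1 against 0.319 to 0.339.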

How the results depend on the processing

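None of the 6 tested members was called in the reported fit, with RLE or upper-quartile scaling, the 1 CPM filter, DESeq2, limma-voom, no robust estimation or the replicate block. With no count filter 1 was lower (Neurod1). With only controls 1 and 2, 2 were higher (Foxa2, Prox1) and 1 lower (Neurod1, which entered that fit only through the controls where it is high), and with only controls 3 and 4, 1 was lower (Nfib). Leaving out each library gave 0 to 1 higher (Prox1, without control 4) and 0 to 1 lower. The member called lower was Neurod1, which again entered those fits only through the controls, so these calls are not used. The difference of Neurod1 was -1.23 CPM with all libraries (exact permutation p = 0.0571) and ran from -1.63 to -0.864 CPM when each library was left out in turn. Over all genes, 1457 were higher and 1627 lower. With only controls 1 and 2, 2987 were higher and 3081 lower, and of list genes 49 were higher rather than 29. That fit called 44.6% of its tested genes, against 23.1% in the reported fit and 20.7% with only controls 3 and 4. Leaving out each library gave 963 to 1846 higher and 1139 to 1929 lower over all genes. Upper-quartile scaling gave 1160 and 1965, so that falls made up 62.9% of calls rather than 52.8%, with a median over all genes of -0.05. Calca turned from -1.08 to 0.33 with only controls 3 and 4 (called higher) and was -1.78 with only controls 1 and 2 (called lower). The cause of these shifts was not tested. With the replicate block, 1208 were higher and 1324 lower. No label ties libraries of the same number to a common culture or day, and same-numbered deviations correlated at -0.20 to 0.00, so the numbers were not taken as pairs.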
